A study of Mus musculus with 6 samples.

Results

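Integrins are adhesion receptors made of an alpha and a beta chain, and those of white blood cells hold the cells to vessel walls, to matrix and to each other. The chains examined here are the alpha chains Itgal, Itgam, Itgax and Itgad, which pair with the beta2 chain Itgb2, the alpha chain Itga4, which pairs with the beta1 chain Itgb1 or the beta7 chain Itgb7, and Itgae, which pairs with Itgb7. They were taken by name, with every probe whose RefSeq transcript belongs to one of them. Of 9 listed genes, 8 had probes, 13 in all, out of 20659 genes and 39429 probes named or unnamed on the array. Itgae had no matching accession and was not analysed here.

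The arrays hold spleen RNA of male ICR mice, an outbred strain, and all of the mice received cyclophosphamide (Cy), an alkylating drug that depletes lymphocytes, at 40 mg/kg for 5 days. The model (MOD) group, arrays 1, 2 and 3, was labelled as day 5 with Cy, and with water in place of the compound that the other group received. The SA-H group, arrays 4, 5 and 6, was labelled as day 28 with schizandrol A (SA), a lignan of Schisandra chinensis, at 1000 mg/kg per day. The paper describes a shorter course, with water for its model mice over that same course. Its doses are given in micromoles per kg and were not converted here, so no match with the dose on the label is claimed. The treatment protocol instead has model mice receive water for 4 weeks, which conflicts with a sampling at day 5, and the conflict could not be settled. Where the day labels hold, an effect of SA and one of the sampling day cannot be told apart, and untreated mice are not among the arrays, so that each comparison asks how SA-H differed from MOD and not from health. No source states that each array had its own mouse, so p-values set the group difference only against the spread of these samples, which may be technical. RNA of a whole spleen also cannot tell fewer cells of a kind from less RNA per cell.

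In the spleen, Itgal with Itgb2 forms LFA-1, which lymphocytes use to bind ICAM proteins. Itgam with Itgb2 forms Mac-1, or CD11b/CD18, a receptor of neutrophils, monocytes and macrophages for fibrinogen and complement. Itgax (CD11c) is the classical marker of dendritic cells, Itgad is found on red pulp macrophages, and the Itga4 pairs bind VCAM-1 and MAdCAM-1. These chains only reach the cell surface as pairs.

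Levels are the log2 of the processed spot signal relative to the 75th percentile of the array, so a level of 0 lies at that percentile. The share of spots well above background ran from 43.1% to 73.9% over the arrays and was highest on MOD array 2 and SA-H array 5. SA-H array 4 had the lowest 75th percentile (219.7, against 432.6 to 867.8 on the other arrays) and correlated least with the MOD arrays (r = 0.838 to 0.897 across tested features, which are not replicates). The T cell markers (summed linear level 16.8 to 33 in MOD and 14.8 to 23.4 in SA-H, with 10 of 10 measured) and the B cell markers (107 to 137 and 117 to 141, 10 of 10) were present in both groups. The labels' extraction protocol speaks of liver, and of 8 liver markers only 3 were measured, with albumin among those too dim. The value table that the authors deposited could not be matched to these arrays: the rank correlation of a column with its own array was 0.797 to 0.897 over 13882 probes, and only 1 of 6 columns was most like its own array. Its values are therefore given beside the results as a separate set, with the link to the arrays unsettled.

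Itgam, the CD11b gene, was the 1 chain that passed the unadjusted test, and it was higher in the SA-H group. Its bright probe had log2 levels of 1.58, 1.69 and 1.38 on MOD arrays 1, 2 and 3 and of 3.94, 2.55 and 3.06 on SA-H arrays 4, 5 and 6. Every SA-H array lay above every MOD array, and array 4 was the highest. The mean was 1.55 ± 0.16 (SD, n = 3) in MOD and 3.18 ± 0.70 (SD, n = 3) in SA-H. SA-H was thus higher by 1.63 on the log2 scale (95% interval 0.75 to 2.51, standard error 0.37), or 3.10-fold. The unadjusted p from limma was 0.00307 and the adjusted p 0.0817, so Itgam passed the unadjusted threshold and not the adjusted one. Over 16 other fits and tests of the scanner values its unadjusted p ran from 0.00029 to 0.0170 and its adjusted p from 0.0211 to 0.397. The change was 1.25 without array 4, 1.58 within scan day 1, 2.24 within scan day 2 (both had arrays of each group), and 1.87 with scan day blocked (adjusted p = 0.0211, limma).

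In the deposited value table the same Itgam probe stood at 10.38, 10.52 and 10.70 for the MOD samples and at 10.37, 10.14 and 10.26 for the SA-H samples. There it was lower in the SA-H group by -0.28 (unadjusted p = 0.0766, adjusted p = 0.199, limma), so the direction depends on which set of deposited values is read. The 2 other Itgam probes, which lie near background, were well above it on 1 MOD and 1 SA-H array and on 1 MOD and 2 SA-H arrays. They were not kept for the tests and give no second measure of the gene.

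**Figure D1:**
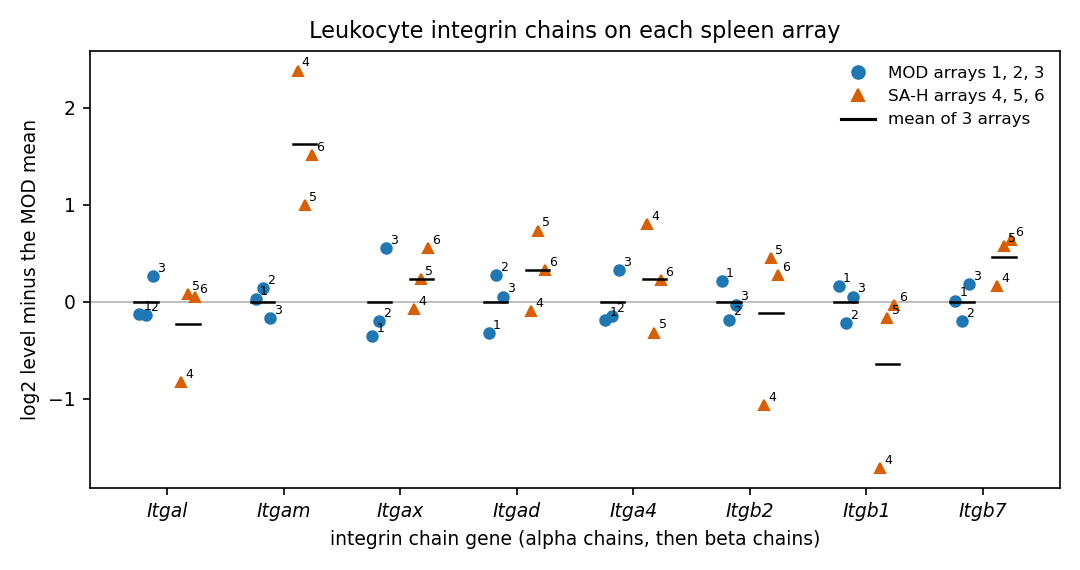
Log2 level of each integrin chain on each spleen array, minus the mean of the 3 MOD arrays; dots are MOD arrays, triangles SA-H arrays, numbers the arrays and bars the means of 3 arrays. Only Itgam has every triangle above every dot, and SA-H array 4 lies far below the others for Itgal, Itgb2 and Itgb1.

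Of the 8 chains, 1 passed an unadjusted p under 0.05 (12.5%, against 23.8% of the 14818 tested features). It was also the 1 chain with a fold change of at least 2 at that p (background 13.7%, made up of 8.75% higher and 4.93% lower), and the 1 chain whose groups did not overlap (background 32.7%). These shares lie near or below the background. At an adjusted p under 0.05, 0 chains and 0 of all features passed in limma, with 3531 features at an unadjusted p under 0.05, and the test that the methods name passed 0 as well, with 2953 unadjusted. The median log2 fold change was 0.24 over the chains and -0.02 over all features. With the arrays scaled by their medians, features with a value on every array shift by -0.32 and the chains stand at -0.09, which leaves them 0.26 above all features, as before.

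None of the other alpha partners of the beta2 chain passed the test. Itgax lies next to Itgam in the genome, followed by Itgad, with no other coding gene between them. Itgax had levels of -0.39, -0.23 and 0.51 in MOD and -0.11, 0.20 and 0.51 in SA-H, and the groups overlapped. Its log2 fold change was 0.23 (standard error 0.32, 95% interval -0.53 to 1.00, adjusted p = 0.672, limma). Itgad had 0.09, 0.69 and 0.47 in MOD and 0.32, 1.15 and 0.75 in SA-H, with overlap, and a change of 0.32 (95% interval -0.39 to 1.04, adjusted p = 0.526). These intervals do not show that the genes were alike in both groups. Itgal, the alpha chain of LFA-1, was at -0.45, -0.46 and -0.06 in MOD and at -1.15, -0.24 and -0.27 in SA-H. Only array 4 was low, and the change of -0.23 (adjusted p = 0.672, limma) became 0.07 without it. A dimmer Itgal probe, from another transcript, gave -0.32 (adjusted p = 0.705 over all kept probes) and was not well above background on array 4.

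Of the neighbours Itgam and Itgax, only Itgam passed, but no test compared their changes with each other. Their 95% intervals overlap, and in the value table they were at -0.28 and -0.31. The 250 bases before the start of each are shown as a description, from RefSeq (GRCm38.p6, plus strand, chr7:128062390-128062639 for Itgam and chr7:128129300-128129549 for Itgax). Capitals mark GAGGAA on either strand, the core letters bound by PU.1, a transcription factor of myeloid cells and B cells, which were chosen after the values had been seen.
Itgam: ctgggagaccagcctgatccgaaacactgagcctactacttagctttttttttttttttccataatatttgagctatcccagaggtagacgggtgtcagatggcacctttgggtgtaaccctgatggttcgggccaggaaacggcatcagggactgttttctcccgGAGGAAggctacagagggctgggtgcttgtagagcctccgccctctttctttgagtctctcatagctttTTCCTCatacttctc
Itgax: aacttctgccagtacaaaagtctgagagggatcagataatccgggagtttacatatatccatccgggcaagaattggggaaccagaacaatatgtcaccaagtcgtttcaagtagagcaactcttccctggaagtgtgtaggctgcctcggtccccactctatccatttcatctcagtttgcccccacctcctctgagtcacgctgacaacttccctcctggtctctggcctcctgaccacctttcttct
The Itgam window held 2 matches, starting 84 and 15 bases before the start, and the Itgax window 0. Among 32851 windows of this length, 23.3% held at least 1 match, and of the 9 genes 5 had a window in the table. Itgb1 had 1 match and Itga4 and Itgb7 had 0. A match describes letters and is no evidence that the factor binds there.

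The values of the beta chains depended on SA-H array 4. Itgb2 had levels of 1.68, 1.29 and 1.44 in MOD and of 0.40, 1.92 and 1.75 in SA-H. Array 4 was the lowest of all and arrays 5 and 6 were the highest, so the groups overlapped. The change was -0.11 (standard error 0.42, 95% interval -1.11 to 0.88, adjusted p = 0.883, limma) and 0.36 without array 4 (unadjusted p = 0.150). Itgb7 had 1.58, 1.37 and 1.75 in MOD and 1.73, 2.14 and 2.20 in SA-H, where only array 4 reached down into the MOD range. Its change was 0.46 (standard error 0.25, 95% interval -0.13 to 1.05, adjusted p = 0.295). Without array 4 it was 0.60 at an unadjusted p of 0.0294 (adjusted p = 0.166, limma), which adds a second chain to the count.

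Itgb1 gave opposite signs with its probes. The brighter probe had 1.47, 1.09 and 1.36 in MOD and -0.41, 1.14 and 1.27 in SA-H, a change of -0.64 (standard error 0.46, adjusted p = 0.415, limma) that rested on array 4 and was -0.10 without it. The other probe, of the same RefSeq transcript, had 0.63, 0.28 and 0.16 in MOD and 0.79, 0.75 and 0.73 in SA-H. There every SA-H array lay above every MOD array, which held for 2 of 10 kept probes of the chains (20%, against 33.3% of all kept probes), and the change was 0.40 (adjusted p = 0.327 over all kept probes). Itga4, which pairs with Itgb1 and Itgb7, was at 3.55, 3.59 and 4.06 in MOD and at 4.53, 3.42 and 3.96 in SA-H. Array 4 was the highest and array 5 the lowest, so the groups overlapped, and the change of 0.24 (95% interval -0.57 to 1.04, adjusted p = 0.690) became -0.05 without array 4. A dim probe of Itga4 was well above background on 1 array of each group and was not tested.

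**Figure D2:**
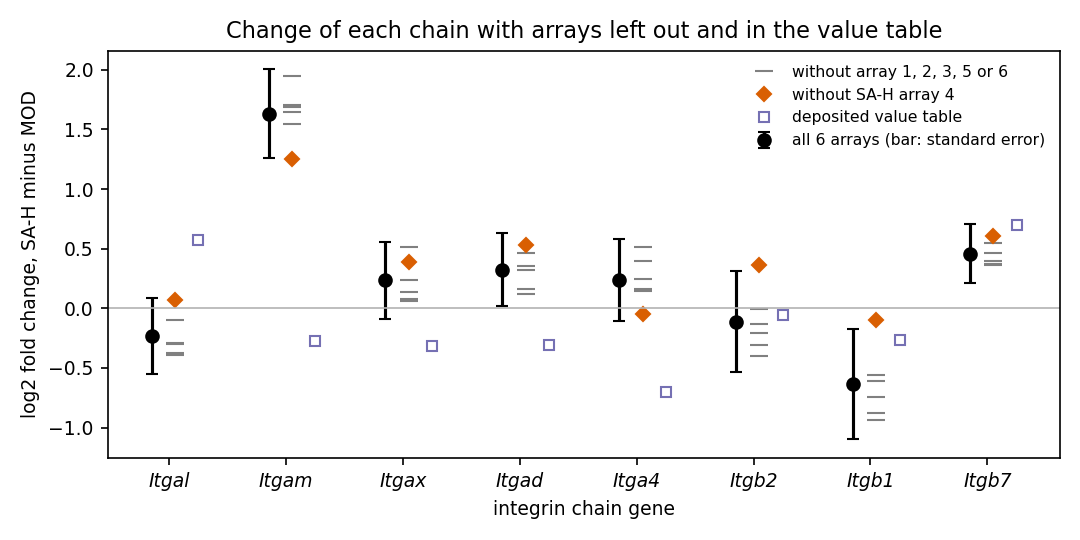
Log2 fold change of each chain, SA-H minus MOD, with all 6 arrays (dots, bars are standard errors), with 1 array left out (dashes, or diamonds for SA-H array 4) and in the deposited value table (squares). Leaving out array 4 moves Itgb2 from -0.11 to 0.36 and Itgb1 from -0.64 to -0.10, and the value table puts Itgam at -0.28 in place of 1.63.

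To see whether the chains of a pair changed unequally, the beta chain was subtracted from the alpha chain within each array, on the log2 scale, for 6 known pairs. For Mac-1, Itgam minus Itgb2 was -0.11, 0.40 and -0.06 in MOD and 3.53, 0.62 and 1.32 in SA-H. The groups did not overlap, and the difference between them was 1.75 (exact permutation test, two-sided, p = 0.1, the smallest that 3 arrays against 3 allow, and 0.6 after adjustment over the 6 pairs). It was 0.89 without array 4. For VLA-4, Itga4 minus Itgb1 was 2.08, 2.50 and 2.70 in MOD and 4.94, 2.27 and 2.68 in SA-H, where array 4 alone lay outside the MOD range. That difference was 0.87 (exact permutation p = 0.5) but 0.05 without array 4, and -0.16 with the other Itgb1 probe (exact permutation p = 0.7). The other pairs differed by -0.22 (Itga4 with Itgb7) to 0.44 (Itgad with Itgb2), with exact permutation p from 0.5 to 0.7. No pair could pass in a design of this size.

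**Figure D3:**
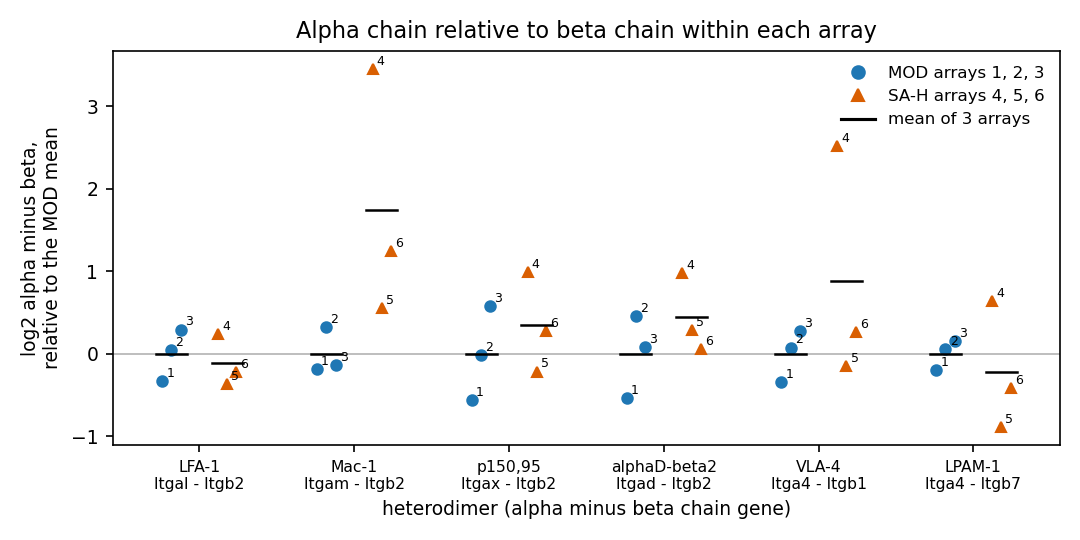
Alpha minus beta chain within each array (log2) for 6 integrin pairs, relative to the MOD mean; dots are MOD arrays, triangles SA-H arrays and bars the means of 3 arrays. The Mac-1 pair is the 1 pair without overlap, and array 4 lies highest among the SA-H arrays for each pair.

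Selectins act before integrins when white blood cells slow down on a vessel wall. Of 14 genes for selectins, their ligands and the enzymes that build or shed these proteins, 8 were measured and 0 passed an unadjusted p under 0.05 in limma (background 23.8%), or 1 without MOD array 2 or SA-H array 5, with a median change of 0.19 (-0.13 with the arrays scaled by their medians). Among these, the sialyltransferase gene St3gal6 was at -0.53, the fucosyltransferase gene Fut7 at 0.47 and the shedding protease gene Adam17 at 0.29. Gcnt1, which branches the sugars that selectins bind, was at 0.61 with its brightest probe and at -0.61 with its other kept probe. Selp and Sele were too dim.

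Of 17 other integrin chains, 10 were measured, and 2 were higher and 0 lower at an unadjusted p under 0.05 (background 11.7% higher and 12.2% lower). Both of these, Itga1 and Itgb4, were measured only because they were well above background on all SA-H arrays, so their count supports nothing. Among the 6 chains well above background on all 6 arrays, 0 were higher and 0 lower in limma, with a median of -0.25. Itga1, the alpha chain of a collagen receptor, was at -3.64, -2.22 and -2.91 in MOD and at 0.31, -0.08 and -0.79 in SA-H. All SA-H arrays were far above the MOD arrays, by 2.74 on the log2 scale (adjusted p = 0.0613, limma, standard error 0.44), but the probe was well above background on only 2 of 3 MOD arrays, the other kept Itga1 probe gave -0.23, and the mean of the kept probes 1.25. Itgb4, a chain of epithelial adhesion, was at 0.73 (adjusted p = 0.187), again with 2 of 3 MOD arrays well above background. Itga8 was at -0.50 and Itgb5 at -0.38, and neither passed.

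Among 18 ligands, 11 were measured, of which 1 was lower and 0 higher (limma, unadjusted p under 0.05, background 12.2% lower and 11.7% higher), with a median of -0.02. The lower gene no longer passed without MOD array 1, 2 or 3 or SA-H array 5 or 6. The 1 lower gene was Icam4, a red cell adhesion protein that binds leukocyte integrins, at -0.74 (standard error 0.27, adjusted p = 0.169, limma). Beside it, 3 of 10 erythroid markers were lower (background 12.2%) and 0 higher (median -0.68, summed linear level 247 to 313 in MOD and 189 to 376 in SA-H), and their part in the result was not tested. The erythroid count was 6 without SA-H array 4, 2 without MOD array 1, 6 with median scaling and 7 with quantile scaling. In the value table, whose link to the arrays is unsettled, it was 10 of 10 (median -2.47), and Icam4 was at -2.29. Of the classical counter-receptors, Vcam1 was at -0.46, Madcam1 at 0.32 and Icam2 at -0.02, none of which passed. The other kept Vcam1 probe gave -1.41. Icam1 and the Itgae ligand gene Cdh1 were too dim. Icam5 (1.49), Jam3 (-0.59) and the complement gene C3 (0.52) did not pass either.

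The intracellular proteins that switch integrins on, or tie them to actin, were found in both directions. Of 30, 26 were measured, 4 were higher and 4 lower at an unadjusted p under 0.05 (background 11.7% and 12.2%), with a median of -0.05. Fyb, the adaptor ADAP that links the T cell receptor to integrin activation, was at 1.57, 1.05 and 1.25 in MOD and at 2.27, 2.33 and 2.38 in SA-H, without overlap. Its change was 1.04 (standard error 0.24, adjusted p = 0.0818, limma), and its other kept probe gave 1.26. Ilk, the integrin-linked kinase, was lower, at -1.13 (standard error 0.29, adjusted p = 0.0967). The paxillin relative Lpxn was at -1.08 (adjusted p = 0.138). Fermt2, or kindlin-2, was at 0.92 (adjusted p = 0.116), but a further Fermt2 probe gave -0.76. With the arrays scaled by their medians, 0 of these genes were higher and 8 lower. Leaving out 1 array at a time gave 2 to 5 higher (2 without MOD array 1 or 2 or SA-H array 6) and 1 to 5 lower (1 without MOD array 3, 2 without MOD array 1).

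**Figure D4:**
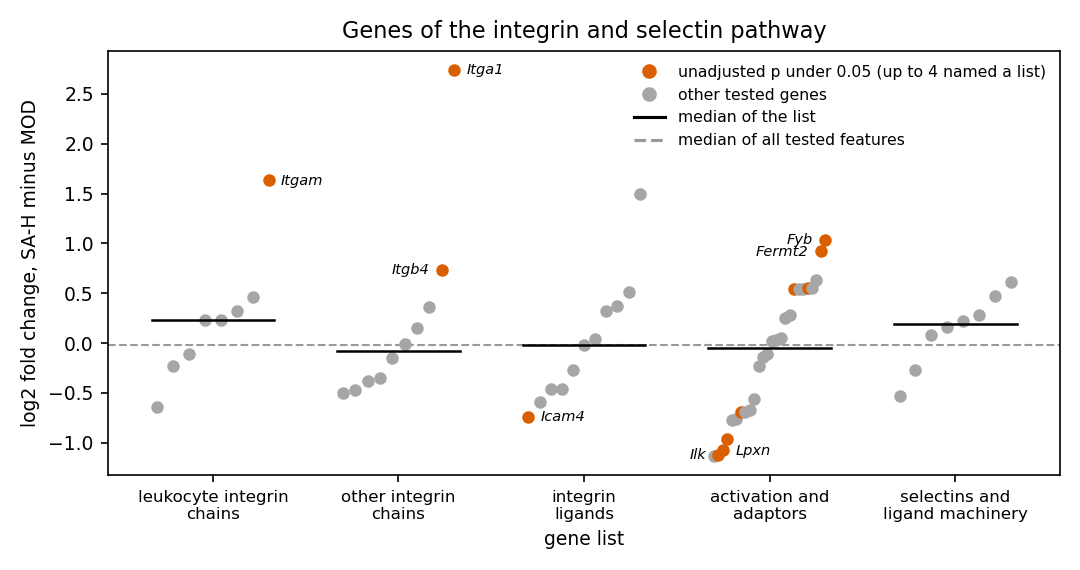
Log2 fold change, SA-H minus MOD, of the measured genes of 5 lists, each sorted from low to high; orange dots passed an unadjusted p under 0.05, bars are list medians and the dashed line is the median of all features. With the brightest probe of each gene, Itgam (1.63) and Itga1 (2.74) lie highest in the integrin lists, and the adaptors spread to both sides of 0.

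Markers of cells that carry these chains, or that a spleen sample could hold, were read beside them at an unadjusted p under 0.05 (background 11.7% higher and 12.2% lower). Of 12 neutrophil and monocyte markers, 10 were measured, 1 was higher and 1 lower, with a median of 0.32, and their summed linear level was 306 to 404 in MOD and 355 to 1033 in SA-H. That median was 0.02 without SA-H array 4, where 2 were higher and 3 lower, -0.06 without MOD array 3, 0.00 with median scaling and -0.05 with quantile scaling. Without SA-H array 5, 2 were higher and 1 lower. Csf3r, the G-CSF receptor gene of neutrophils, was the higher one, at 5.54, 5.39 and 5.21 in MOD and 7.53, 6.35 and 6.79 in SA-H. The change of Csf3r was 1.51 (standard error 0.34, adjusted p = 0.0805, limma), or 1.07 with quantile scaling. Like Itgam and several other markers of this list, Csf3r was highest on array 4. Its change in the value table was 0.16. The granule gene Ngp was lower, at -0.94 (adjusted p = 0.0952). In the value table, 1 of the 10 neutrophil and monocyte markers was higher and 7 were lower, with a median of -0.998. The list as a whole thus went the other way there, unlike Csf3r. Of 10 red pulp macrophage markers 9 were measured, 1 higher and 1 lower (median -0.56, summed level 107 to 136 in MOD and 76.5 to 131 in SA-H). The lower one, C1qa, was well above background on 3 MOD and 2 SA-H arrays. It thus passed the filter only through the MOD group, where it is high. Of the 8 markers well above background on all 6 arrays, 1 was higher and 0 lower. The 9 measured had a median of -0.21 without SA-H array 4, and with median scaling 0 were higher and 3 lower. Their lower count was 0 without MOD array 1, 2 or 3 and 2 without SA-H array 5 or 6. Of 8 dendritic cell markers 6 were measured, 1 higher and 0 lower (median 0.06, summed level 43.2 to 64.9 and 53.7 to 153), and with an array left out the higher one passed only without SA-H array 5. The fat markers had the largest median shift of the marker lists, with 4 measured of 7 and all 4 lower (median -2.50, summed level 7.59 to 11.1 in MOD and 3.96 to 4.96 in SA-H). Adipoq, the adiponectin gene, was at -2.38, Cidec, of lipid droplets, at -2.62, and 1 fat marker, Fabp4 (-0.80), was well above background on all 6 arrays. The other 3 passed the filter only through the MOD group, where they are high, and of the 4 genes 0 passed the test in the value table (limma). The ribosomal protein genes, read as a sign of RNA quality, had 1 higher and 1 lower of 15 (median 0.40, summed level 912 to 1081 and 1060 to 2136), and 5 higher and 0 lower without SA-H array 5. The part of these markers in the Itgam result was not tested.

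As a description over the 6 arrays, the genes most like each beta chain were sought among 9312 named genes well above background on all arrays. Itgb2 ran with Dip2b (r = 0.991), Tcf21 (r = 0.991) and Ly9 (r = 0.985), Itgb7 with Cemip2 (r = 0.992), Dusp16 (r = 0.986) and Tirap (r = 0.983), and Itgb1 with Phf23 (r = 0.999), Snx14 (r = 0.998) and Tug1 (r = 0.998). The 6 points share their libraries, and array 4 was the lowest of all for Itgb2 and for the brighter Itgb1 probe, which stands for Itgb1 here. The other kept Itgb1 probe was highest on array 4 (0.79), and the genes most like that probe were not sought. Among the chains, the one most like Itgb2 was Itgb1 with its brighter probe (r = 0.902), with which Itgb2 does not pair. Next to Itgb2 came its partner Itgal (r = 0.862). The Itgb2 partners Itgad and Itgax had r = 0.455 and r = 0.310 with it, Itgb7 r = 0.422, Itgam r = -0.52 and Itga4 r = -0.81. With the brighter Itgb1 probe, the chain with the highest r was Itgal (r = 0.913).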

How the data were processed

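Spleen RNA on 6 one-colour Agilent arrays (3 MOD, 3 SA-H) was analysed. The authors extracted each spot's intensity in Agilent Feature Extraction 11.0.1.1, with an mm9 grid per the file headers. It is linear, background-subtracted and unscaled across arrays. Values in the deposited table are on a log2 scale, with a median of 5.34 in each column. The scale was read from its range, and how it was made is not given in the sources used here.

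Spots apart from controls (43020 per array) were taken as log2 signal minus the 75th percentile of the array. Spots called outliers by the scanner software (172 to 634 per array) were left out, 0 were saturated, and spots of a probe were averaged. RefSeq accessions named 27234 of 39429 probes. A probe was kept if either group had it well above background on each of its 3 arrays, and the brightest kept probe stood for its gene, which left 14818 features, 11097 with a symbol. SA-H was set against MOD in limma 3.58.1 under R 4.3.3 (lmFit, eBayes, Benjamini-Hochberg over all features), and pairs with exact permutation tests in scipy 1.17.1. Intervals use limma's standard error and degrees of freedom.

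The members and lists were chosen with earlier results of these data known. The text names all members with every probe, up to 4 genes per pathway list with the smallest p, known counter-receptors, the 3 genes most like each beta chain and at most 2 markers per list. A further gene that the rule named is not reported here. Alternatives covered scaling, background correction (normexp with an offset of 50, on median signals since the mean was not used here), filter, probe choice, outlier spots, scan day, slide scan, test and arrays left out. The scanner headers give 3 scan days: MOD arrays 1 and 3 with SA-H array 6, MOD array 2 with SA-H array 4, and SA-H array 5 alone, about which a day block says nothing. In data simulated for this comparison over 14422 features, 48% of genes with a log2 change of 1 and 95% of those with a change of 2 passed the fold and unadjusted p limits, as did 2.12% of unchanged genes; 1% and 53% passed the adjusted p. That simulation used independent normal noise with each gene's own spread and changed only 200 genes, without shifts of whole arrays. Its shares of genes passing, above all at the adjusted p, therefore need not hold for these data. The number of arrays limits the precision.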

Additional observations from a re-analysis of the deposited data

How the results depend on the processing

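The number of chains at an unadjusted p under 0.05 was 1 with all arrays and 1 to 2 when an array was left out (2 without SA-H array 4, Itgam and Itgb7), and 3 in the value table, where these were Itga4, Itgal and Itgb7 and not Itgam. Their median change, 0.24, was 0.10 to 0.38 with an array left out, -0.0859 with the arrays scaled by their medians, -0.12 within the second scan day and -0.27 in the value table. The number of features with a fold change of at least 2 at that p, 2026 (64.0% higher), was 1360 to 2649 with an array left out, 3315 with median scaling (34.8% higher), 1324 in the value table (24.2% higher), 1245 among probes well above background on all arrays and 1262 with the methods' ANOVA. Itgam kept its direction under all alternatives but the value table (-0.28), from 1.25 to 2.24. Median scaling turned Itgax (-0.0860) and Itga4 (-0.0858), the value table turned Itgax (-0.31), Itgal (0.58), Itga4 (-0.70) and Itgad (-0.31), leaving out SA-H array 4 turned Itgal (0.0665), Itgb2 (0.36) and Itga4 (-0.0478), and the other probe turned Itgb1 (0.40). Within a scan day, which leaves 1 to 2 arrays a group and no test, Itgb2 was at 0.18 on day 1 and Itgad at -0.37 on day 2, where Itgal with Itgb2 was at 0.19 and Itga4 with Itgb7 at 0.59. With each array left out in turn, Itgal ran from -0.389 to 0.0665, Itgb2 from -0.398 to 0.363 and Itga4 from -0.0478 to 0.512. None of these passed in limma with the scanner values. Of the pairs, the value table turned Itgal with Itgb2 (0.64), Itgam with Itgb2 (-0.22), Itgax with Itgb2 (-0.25), Itgad with Itgb2 (-0.25) and Itga4 with Itgb1 (-0.44). With an array left out, Itgal with Itgb2 ran from -0.296 to 0.0275 and Itga4 with Itgb7 from -0.653 to 0.111. The cause was not tested. No paired analysis was possible because the groups share no replicate numbers.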

Other observations

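The NK cell markers, which the text above does not use, had 2 higher and 0 lower of 4 measured genes at an unadjusted p under 0.05 (median 0.82, background 11.7% higher). The higher genes numbered 0 with median scaling. With an array left out they numbered 0 (array 6), 1 (arrays 1, 2, 3 and 5) or 3 (array 4). The granzyme gene Gzma was at 3.79, 3.65 and 3.75 in MOD and at 4.19, 4.49 and 5.09 in SA-H, a log2 fold change of 0.86 (adjusted p = 0.146, limma), and the perforin gene Prf1 was at 0.79 (adjusted p = 0.168). Their summed linear level was 13.4 to 14.8 in MOD and 19.4 to 36.0 in SA-H. In the value table Gzma was at -0.80 and Prf1 at -0.17.

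The columns of the value table and the scanner arrays with the same label differ in more than scaling. The column of MOD array 3 had a correlation of -0.27 with that array after each probe was centred on its mean over the 6 samples, and the column of MOD array 1, the closest, had 0.47. Of the 6 columns, 5 were most like another array than their own by rank correlation.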
